A study of Mus musculus with 2 samples.

Results

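The cells described here are C1q-positive macrophages of the normal mouse mammary gland, chosen by transcript counts from the library labelled NEC (normal endothelial cells). A cell was a member when its UMIs (unique molecular identifiers, 1 per captured RNA molecule) of C1qa, C1qb and C1qc summed to at least 3 and it held no UMI of Cd79a, Cd3e, Cd3d or Cd3g. These conditions held for 87 of 1806 NEC cells, or 4.82% (exact binomial 95% interval 3.88 to 5.91), out of 2806 cells in the series. The C1q sum ran from 3 to 83 per gated cell with a median of 20. Of the NEC cells just outside the threshold, 2 had a sum of 2 and 30 had a sum of 1, and 3 cells lay just inside at 3. A further 7 cells reached the sum but held Cd79a or Cd3 UMIs and were left out.

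The study set sorted cells of normal mammary gland against sorted cells of EO771 mammary tumors by droplet 3' single-cell RNA sequencing, with 1 library per group. The mice were female C57BL6/J, 8 weeks old, of genotype Cdh5Cre-ERT2:ZSGreenl/s/l, given tamoxifen; the tumors grew from EO771 cells placed in the mammary fat pad, for about 3 weeks. Cre was driven by the promoter of Cdh5, the VE-cadherin gene of endothelium, and live ZSGreen-positive cells were sorted from both tissues. The labels do not say whether a library pooled animals or whether the normal glands came from mice with tumors, and the cells whose names start with "control" were taken as NEC by that word alone. With 1 library per group no difference has a replicate check. No significance test was made, and every interval is a 95% counting interval that covers counting error only.

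C1q is the recognition molecule of the classical complement pathway, built from A, B and C chains and made mostly by tissue macrophages. Macrophages that carry Lyve1, a hyaluronan receptor, and Folr2, a folate receptor, are known from the stroma of many tissues including mammary gland, where they lie near vessels and take up debris. A separate ductal population rich in Cx3cr1 and Itgax lies within the epithelium.

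The gated cells held 273577 UMIs, with a median of 2701 per cell (1166 to 16617), 926 genes and 2.26% mitochondrial UMIs; the other NEC cells had medians of 2242 UMIs and 3.25%. The libraries shared 2 cell barcodes, none of them in the gate. At least 1 of 7 pan-macrophage markers (among them Csf1r, Adgre1, Cd68 and Mrc1) was present in 85 of the 87 cells. The 7 markers summed to 1963 CPM (a gene's share of the summed UMIs on the usual counts-per-million scale) against 156 CPM in other NEC cells. Mertk and Fcgr1 of this list were sparse in the gate, with 5 UMIs in 5 cells and 4 UMIs in 4 cells. Of the 7 endothelial markers in the table, Cdh5, Kdr, Tek, Cldn5 and Emcn were at 0 in the gate, and Pecam1 and Egfl7 had 1 UMI each. Cdh5, Kdr and Emcn are listed at 0 in every NEC cell, so their absence does not set the gated cells apart from the others. The sources do not say whether the table holds every sorted cell, so the share of 4.82% is of the cells in this table. The deposited counts carry the label "negs", and whether the gated cells were ZSGreen-positive was not checked. Residence in the tissue over time was not measured. T markers were at 0, B or plasma markers at 18.3 CPM, fibroblast markers at 10.97 CPM in 3 cells, epithelial markers at 3.66 CPM and neutrophil markers at 47.5 CPM. The monocyte genes Ace, Treml4 and Cd300e and the dendritic genes Flt3, Xcr1, Clec9a and Zbtb46 were at 0. Xcr1 and Clec9a are listed at 0 in every NEC cell, so their absence sets nothing apart. Of the other monocyte markers, Ccr2 had 45 UMIs in 28 gated cells, Ly6c2 had 6 in 1 cell and Spn had 1. Of the other dendritic markers, Cd209a had 20 UMIs in 13 cells and Ccr7 had 1. Of the ductal macrophage genes, Cx3cr1, Cd72, Cadm1 and Mmp12 were at 0 in the gate and Itgax had 1 UMI. A UMI of another lymphocyte gene was held by 26 gated cells, in 23 of them Cd2, and with these genes excluded too the gate took 3.38% of NEC cells.

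The 3 C1q genes lie side by side on chromosome 4 of the mm10 build: C1qa at chr4:136895917-136898803, C1qb at chr4:136880129-136886187 and C1qc at chr4:136889804-136893065, all on the minus strand. In the gate C1qa was present in 86 cells with a median of 8 UMIs per cell (0 to 35), C1qb in 85 with a median of 7 (0 to 29) and C1qc in 82 with a median of 4 (0 to 20). No chain was confined to a few of the cells, though the rule on their sum favors the presence of each. The gate held 86.3% of all C1q UMIs of the library in 5.23% of its UMIs; this share follows from the rule.

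The promoters of C1qb and C1qc are shown because their transcripts were part of the rule that chose the cells. Those of Retnla and Saa3 are shown for their part in the spread described further on, where their rho was -0.50. Each is the 300-base window around the annotated start in RefSeq on GRCm38.p6, 5' to 3' on the gene's strand. Capitals mark matches on either strand to GAGGAA, a core of sites of PU.1 (the ETS factor of myeloid cells), TTC and GAA parted by any 4 bases (STAT6) or TTGCNNAA (C/EBP). The windows are C1qb at chr4:136886151-136886450 (minus), C1qc at chr4:136892865-136893164 (minus), Retnla at chr16:48842359-48842658 (plus) and Saa3 at chr7:46715627-46715926 (minus).
C1qb: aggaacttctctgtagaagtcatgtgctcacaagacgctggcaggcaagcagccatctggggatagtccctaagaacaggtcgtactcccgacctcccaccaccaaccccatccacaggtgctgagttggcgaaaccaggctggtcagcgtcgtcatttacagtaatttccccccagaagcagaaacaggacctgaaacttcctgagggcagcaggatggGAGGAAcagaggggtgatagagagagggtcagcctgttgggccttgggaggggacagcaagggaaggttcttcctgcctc
C1qc: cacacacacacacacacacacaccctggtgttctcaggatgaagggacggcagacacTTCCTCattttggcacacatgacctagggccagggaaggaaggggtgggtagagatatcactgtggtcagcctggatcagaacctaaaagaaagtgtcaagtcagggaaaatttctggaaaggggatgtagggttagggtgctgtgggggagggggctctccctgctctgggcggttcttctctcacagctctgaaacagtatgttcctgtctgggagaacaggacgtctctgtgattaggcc
Retnla: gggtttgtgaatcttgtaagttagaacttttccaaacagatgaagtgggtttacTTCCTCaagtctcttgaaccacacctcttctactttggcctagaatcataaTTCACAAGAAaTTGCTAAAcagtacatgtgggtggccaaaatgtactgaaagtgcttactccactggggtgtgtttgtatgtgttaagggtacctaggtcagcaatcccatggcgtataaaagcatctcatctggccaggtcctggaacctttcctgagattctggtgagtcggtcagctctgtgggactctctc
Saa3: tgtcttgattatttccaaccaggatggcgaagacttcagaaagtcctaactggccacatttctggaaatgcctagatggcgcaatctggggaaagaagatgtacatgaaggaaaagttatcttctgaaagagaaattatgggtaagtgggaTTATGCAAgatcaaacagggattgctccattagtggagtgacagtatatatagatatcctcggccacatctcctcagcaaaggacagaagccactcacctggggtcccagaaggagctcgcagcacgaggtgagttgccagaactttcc
GAGGAA was found once each in C1qb (bases 221 to 226 of the window, on the gene's strand), C1qc (58 to 63, opposite strand) and Retnla (55 to 60, opposite strand). Retnla, which interleukin-4 induces through STAT6 and C/EBP as background knowledge, held the STAT6 motif at bases 106 to 115 and TTGCNNAA at 117 to 124, which do not overlap. Saa3, an acute-phase gene, held TTGCNNAA at 152 to 159 on the opposite strand. The Cd209f window on chromosome 8 held none of the 3 motifs. Among all 32544 promoter windows of this length, 28.1% held GAGGAA, 6.98% the STAT6 motif and 10.8% TTGCNNAA, so a match is a description of these letters only.

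Against the 1719 other NEC cells, the gated cells held the transcripts of a phagocyte that makes complement, lectins and lipid carriers. The other cells included 535 T cells and 491 B cells, and the rule used this contrast, so the values describe the gate and test nothing. A gene was counted when its CPM ratio was at least 2 in either direction, its interval excluded 1 and both sums together held at least 50 UMIs. Of 6592 such genes, 768 were higher (11.7%) and 905 lower (13.7%), and the median gene stood at -0.28 on the log2 scale. With the further lymphocyte genes excluded, which moves 26 gated cells to the other cells, 589 were lower.

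By role, the complement list had 10 of 13 measured genes higher, C1qa, C1qb and C1qc among them, which the rule itself selected. The others included C4b, the fourth component, at 504 against 7.06 CPM (ratio 71.4, 49.0 to 107), and C3ar1, the C3a receptor, at 318 against 10.1 CPM (31.5, 22.005 to 45.6). C3, Cr1l and Serping1, the C1 inhibitor, were lower. All 15 measured genes of the Lyve1 and Folr2 resident list were higher, with a median log2 ratio of 4.66. Folr2 stood at 450 against 4.04 CPM (111, 69.1 to 189), Lyve1 at 186 against 1.82 CPM (103, 50.04 to 237), and Fcna, ficolin A, a lectin of the complement system, at 391 against 1.01 CPM (388, 161 to 1218). Pf4, platelet factor 4, stood at 1678 against 20.4 CPM (82.3, 66.2 to 103), Cd163, the hemoglobin scavenger receptor, at 135 against 2.62 CPM (51.5, 26.8 to 106), and Igf1 at 194 against 5.65 CPM (34.3, 21.3 to 56.3). Timd4 held 10 UMIs in the gate and was under the minimum.

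The Cd209 genes encode C-type lectins related to DC-SIGN and lie together on chromosome 8. Cd209f (chr8:4102787-4105835) had 107 UMIs in the gate and 2 in all other NEC cells, a ratio of 969 (262 to 8104), and Cd209g (chr8:4134098-4137707) had 63 and 2, a ratio of 570 (152 to 4814). With the 26 cells that hold further lymphocyte genes moved to the other cells, these ratios were 51.6 and 53.1, outside the counting intervals above. Cd209d (7.02, 4.48 to 10.7) and Cd209a (3.55, 2.08 to 5.77) also passed, but the gate held only 27.9% and 16.4% of their NEC UMIs against 98.2% of those of Cd209f and 96.9% of those of Cd209g. With the 26 cells moved, Cd209a stood at 2.18 (0.92004 to 4.45) and did not pass. Cd209b had 11 UMIs in the gate and 2 outside, and Cd209e 1 and 17; both were under the minimum. Of the other C-type lectins 9 of 9 measured were higher, among them Mgl2 (32.7, 25.8 to 41.5) and Mrc1, the mannose receptor (23.7, 17.4 to 32.6).

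Retnla, which encodes the secreted protein RELMalpha and is a marker of alternative activation, made up 3.94% of the gated cells' UMIs. It stood at 39426 against 2530 CPM, a ratio of 15.6 (15.2 to 16.0), and the gate held 46.25% of the library's Retnla UMIs. Ccl24, the eotaxin-2 chemokine, stood at 1170 against 41.2 CPM (28.4, 23.76 to 34.03). In the alternative activation list 7 of 14 measured genes were higher and 2, Chil3 and Ccl17, were lower; Arg1, arginase 1, did not pass at 29.2 against 16.1 CPM.

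Apoe, the lipid carrier, stood at 15147 against 291 CPM (52.0, 48.9 to 55.2), and 11 of 16 lipid-associated genes were higher while Cd9 was lower. Spp1 had 2 UMIs and Gpnmb 1 UMI in the gate. Ltc4s, leukotriene C4 synthase, stood at 735 against 17.6 CPM (41.8, 32.4 to 54.4), and 4 of 7 eicosanoid genes were higher. Fn1, fibronectin, stood at 1448 against 366 CPM (3.95, 3.54 to 4.41), with 8 of 13 growth factor and matrix genes higher and 1 lower. All 17 measured genes of the 19 on the core macrophage list were higher, among them Csf1r (21.8, 17.3 to 27.3) and Adgre1 (12.3, 8.62 to 17.4).

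Of the remaining lists, 8 of 10 scavenger and iron genes, 8 of 15 chemokines and cytokines, 5 of 7 serous cavity macrophage genes and 6 of 10 MHC class II and ductal genes were higher. Lower were 3 chemokines or cytokines (Il1b, Csf1, Il6) and 3 MHC class II or ductal genes (Cd72, Cd9, H2-DMb2). Of 14 monocyte genes 4 were lower, among them Plac8 at 43.9 against 1031 CPM and Ly6c2 at 21.9 against 126 CPM. Higher were 2, Ifitm6 and Ccr2, the latter at 164 CPM in the gate. In the interferon list 4 of 12 were higher and none lower, in the immediate early list 5 of 20 were higher and 4 lower, and in the proliferation list 1 of 4 was higher and 1 lower. The genes named as lowest were those of lymphocytes, epithelium and fibroblasts: Cd79a, Cd3d and Cd3g, which the rule set to 0, Ebf1 and Krt18 with no UMI in the gate, Ccr7, Gsn and Dcn.

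**Figure D1:**
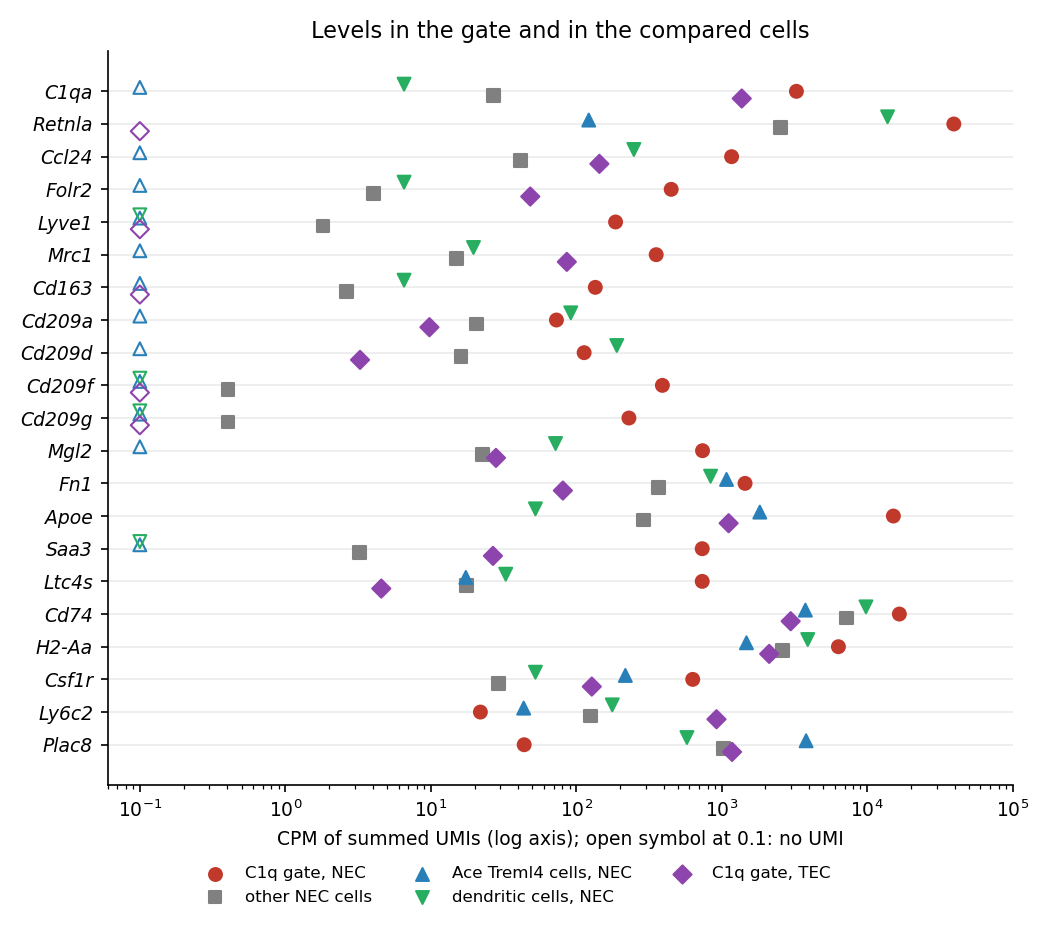
CPM of summed UMIs (log axis) for 21 genes in the C1q gate of NEC, the other NEC cells, the Ace Treml4 cells, the dendritic cells and the C1q gate of TEC. Open symbols mark genes without a UMI in that sum, as for Cd209f in 3 of the compared populations; Retnla reaches 39426 CPM in the gate.

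Closer comparisons within the library were made with 36 cells that held at least 2 UMIs of the patrolling monocyte genes Ace, Treml4 and Cd300e and with 22 cells that held at least 2 UMIs of dendritic genes (Flt3, Xcr1, Clec9a, Zbtb46, Batf3), all with a C1q sum of at most 2. Their medians were 2822 and 6898 UMIs per cell. Of 879 genes measured against the Ace Treml4 cells, 153 were higher in the gate (17.4%) and 90 lower (10.2%). With a scaling by trimmed means, which moved all log2 ratios by 0.36, these were 207 and 61, and with the further lymphocyte genes excluded from both sets 101 were higher. Of 908 genes measured against the dendritic cells, 203 were higher (22.4%) and 103 lower (11.3%), or 242 and 69 with that scaling and its shift of 0.20.

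Retnla separated the gate from the Ace Treml4 cells, at 39426 against 122 CPM (ratio 323, 193 to 592), but was also high in the dendritic set at 13819 CPM (ratio 2.85, 2.72 to 2.99). Of the 22 dendritic cells 10 held at least 10 Retnla UMIs and 8 held none. Apoe was 289-fold (147 to 670) higher in the gate than in the dendritic cells and 8.29-fold (7.21 to 9.56) higher than in the Ace Treml4 cells. No UMI of Lyve1, Cd209f or Cd209g was found in either set. Cd209d lay lower in the gate than in the dendritic cells, at a ratio of 0.596, and did not pass. With 3 UMIs as the floor, the ratio of Cd209f was 14.97 against the Ace Treml4 cells and 19.9 against the dendritic cells (lower limit 15.9). Both ratios rest on that floor and are not lower limits.

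The Lyve1 and Folr2 list had 10 of 11 measured genes higher against the Ace Treml4 cells and 11 of 11 against the dendritic cells, with none lower. The UMI minimum was set on both sums together. The gate held 273577 UMIs, against 114862 in the Ace Treml4 cells and 152611 in the dendritic cells. Some members met the minimum by their gate UMIs alone, as Lyve1 (51 against 0 in the dendritic cells) and Folr2 (123 against 1). The minimum thus favors genes that are high in the gate, and these list counts are partly set by it. Of the MHC class II and ductal list, 6 of 7 were higher against the Ace Treml4 cells, including Cd74, the invariant chain, at 16650 against 3761 CPM. Against the dendritic cells 1 of 6 passed, H2-Ab1; Cd74 had a ratio of 1.70 (1.60 to 1.80). Plac8 was 86.7-fold (49.2 to 169) lower in the gate than in the Ace Treml4 cells, and the dendritic genes Ccl22 and Serpinb6b had no UMI in the gate.

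Fibroblast markers reached 3091 CPM in the Ace Treml4 cells and 256 CPM in the dendritic cells against 10.97 CPM in the gate, and Ptx3, Dcn, Gsn and Col1a2 were among the genes named as lower. At least 5 fibroblast UMIs were held by 7 of the 36 Ace Treml4 cells, 1 of the 22 dendritic cells and no gated cell. With these cells left out, an alternative chosen after seeing the data, 154 and 85 genes passed against the Ace Treml4 cells, and Fn1 changed from a ratio of 1.34 (1.09 to 1.65), not passing, to 30.3 (11.7 to 112). The Fn1 comparison with these cells therefore turns on those 7 cells.

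The spread within the gate was described on cells thinned to 1500 UMIs each, which left 75 cells and left out 12 shallower ones. Counts per cell from here on are thinned unless said otherwise. Retnla ran from 0 to 381 UMIs with a median of 49 and was present in 69 of 75 cells, or 92.0% (83.4 to 97.0). T cells and B cells of the library, thinned alike from medians of 3005 and 1800 UMIs, held Retnla in 13.1% and 17.2%. Without thinning the shares were 92.0% in the gate, 26.0% in T cells and 22.8% in B cells. The part of free RNA in the T and B cell shares was not tested. Apoe ran from 0 to 128 with a median of 18 in 90.7% of cells (81.7 to 96.2), against 3.02% of T cells and 36.1% of B cells. The T and B cell shares of Apoe lay further apart than those of Retnla, and their source was not tested.

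Ccl24 was present in 69.3% of gated cells (57.6 to 79.5; 83.9% unthinned), Folr2 in 48.0% (36.3 to 59.8; 58.6% unthinned) and Lyve1 in 21.3% (12.7 to 32.3; 36.8% unthinned). Their T and B cell shares lay at or under 0.403%. Cd209f was present in 30.7% (20.5 to 42.4), Cd209g in 24.0% (14.9 to 35.3), Cd209d in 12%, Cd209a in 8.00%, Cd209b in 6.67% and Cd209e in 1.33%, all with 0 in T and B cells. Fn1 was present in 44.0% (32.5 to 55.9; 49.4% unthinned) with up to 25 UMIs per cell, against 1.81% of T and 1.47% of B cells. Every gene of this set except Retnla, Ccl24, Apoe and the C1q chains had a median of 0 per cell, so its absence from a cell is not detectable apart from low expression at this depth.

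**Figure D2:**
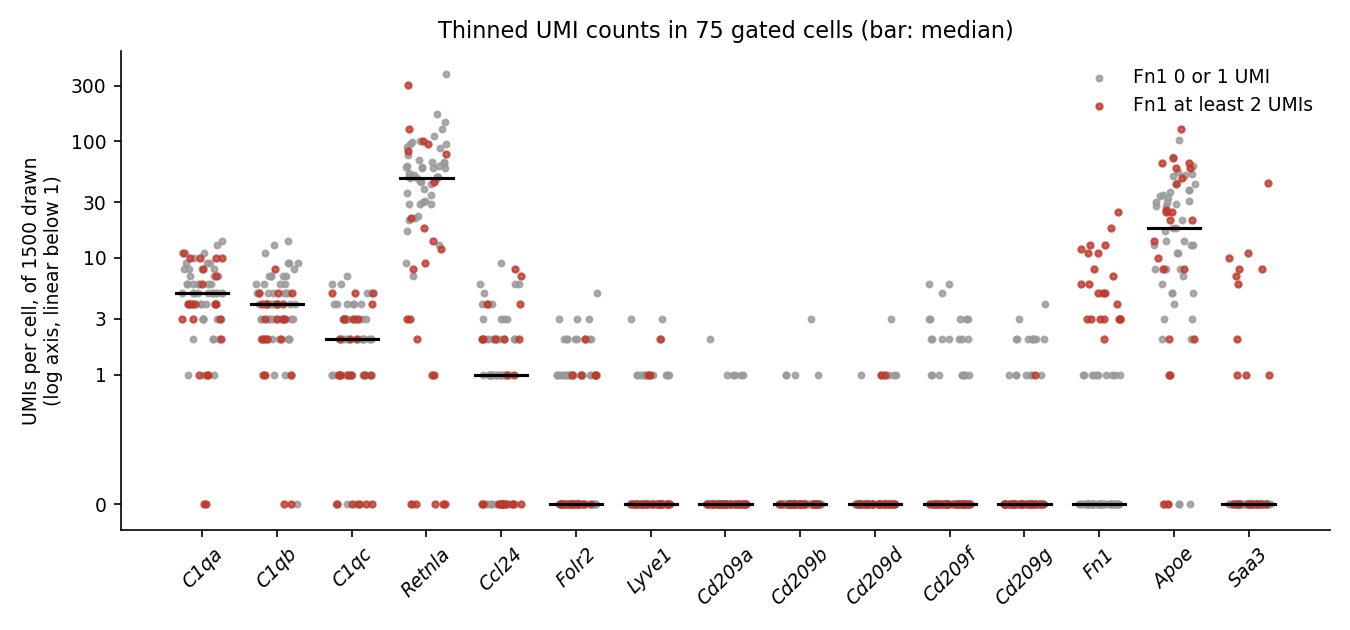
UMIs per cell after thinning to 1500 (log axis, linear below 1) for 15 genes in 75 gated cells, with a bar at the median and cells of at least 2 Fn1 UMIs in red. The C1q genes show red and grey cells mixed, Cd209f shows no red cell above 0, and Saa3 shows red cells up to 44 UMIs.

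Among 485 genes with a mean of at least 0.3 UMIs, the spread beyond counting noise was described by the excess squared coefficient of variation, whose median was 0.33. Hspa1a, a heat shock gene, led with 20.9, followed by Klf2, a transcription factor (18.6), Saa3 (16.7), Cxcl1, a neutrophil chemokine (11.7), and Fos (11.6). In each of these 5 genes 1 cell held between 32.4% and 50.7% of the UMIs. Further genes were Hist1h2bc, Egr1, Dusp1, Socs3, Phlda1 and Atf3, which include early response genes, Lyz1 (5.84), Thbs1, thrombospondin 1 (4.70), Cxcl2 (4.47), Ccl7 (3.23) and Fn1 (3.22). Tmsb10, Lpl, Ly6e and Anxa1 completed the 20. C1qa (0.159), C1qb (0.2001) and C1qc (0.115) had low values. The rule fixed their lowest sum and so left out cells with little C1q, which in part sets these values.

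Rank correlations across the 75 cells share library and depth and are descriptions with no test; a weak rho in counts this sparse is no finding. Fn1 went with Thbs1 (Spearman rho 0.62), Rilpl2 (0.61), Lyz2, lysozyme (0.60), Saa3 (0.57) and Itgb2, the beta-2 integrin (0.40). It went against Mt1, a metallothionein (-0.61), Mgl2 (-0.58), Pf4 (-0.50), Sepp1, selenoprotein P (-0.50), and H2-Ab1 (-0.49). Retnla went with Ccl6 (0.65), Fcrls (0.48), Cd74 (0.45), S100a6 (0.43) and H2-Aa (0.41) and against Saa3 (-0.50), Rilpl2 (-0.41), Fn1, Thbs1 and C4b (-0.39 each). Folr2 went with Cd209f (0.48), Sepp1 (0.41) and Itm2b (0.36) and against Cd44 (-0.38) and Srgn (-0.34). Apoe went with Trf, transferrin (0.47), Fcna (0.44), C4b (0.42), Ppp1r15a (0.41) and Atp6v0b (0.40), and against Sh3bgrl3 and Tmsb10 (-0.39 each); its rho with Fn1 was 0.13. Cd209f and Cd209g had a rho of 0.61, and of the 34 unthinned cells with either gene 23 held both.

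**Figure D3:**
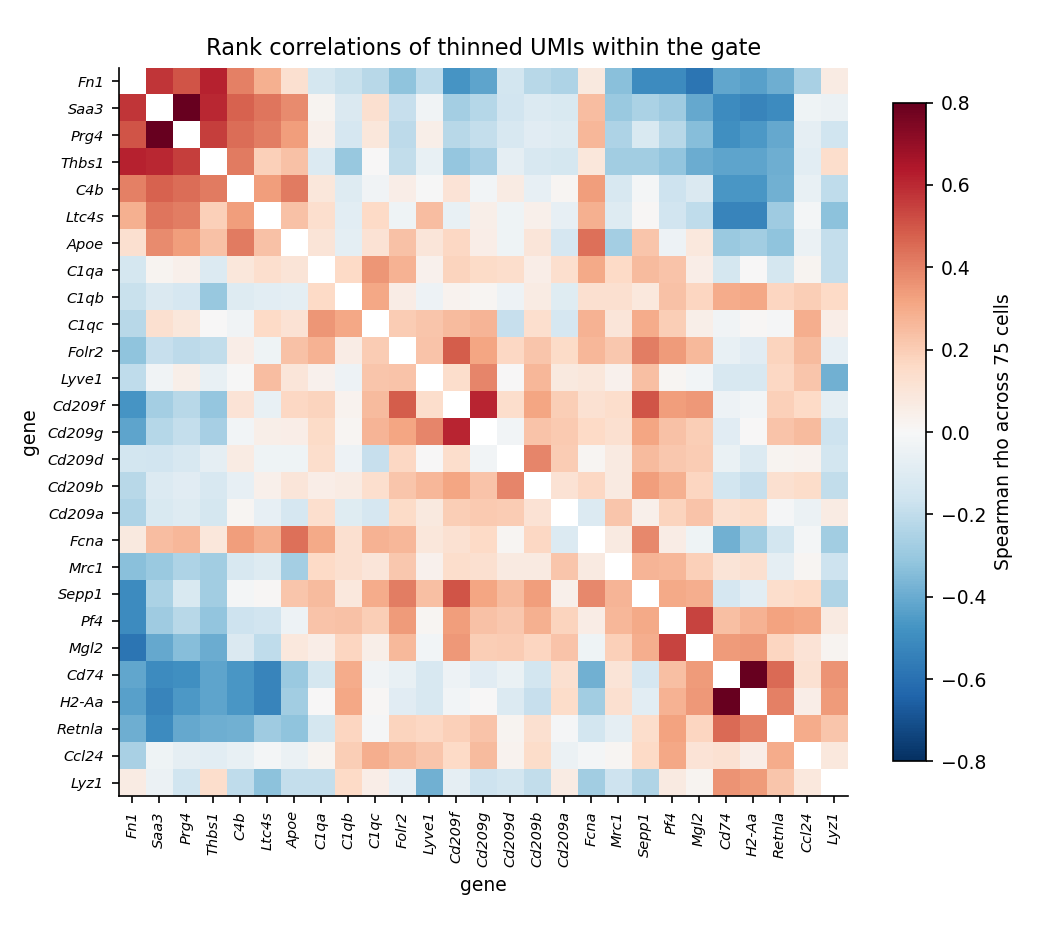
Spearman rank correlations across 75 gated cells for 27 genes, blue below and red above 0, with the diagonal left blank. Fn1, Saa3, Prg4 and Thbs1 form a red block that is blue against Mgl2, Cd74, H2-Aa and Retnla.

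Setting Fn1 against the genes asked about, Cd209f was present in 2 of 33 cells with Fn1 (6.06%, 0.743 to 20.2) and 21 of 42 without (interval 34.2 to 65.8%). Cd209g was present in 1 of 33 and 17 of 42, Folr2 in 10 of 33 (30.3%, 15.6 to 48.7) and 26 of 42 (61.9%, 45.6 to 76.4), Lyve1 in 3 of 33 and 13 of 42, and Ccl24 in 16 of 33 and 36 of 42. Retnla was in 28 of 33 and 41 of 42. Against Apoe no such contrast could be read, since 7 cells lacked it: Folr2 was in 33 of 68 cells with Apoe and 3 of 7 without, and Cd209f in 22 of 68 and 1 of 7.

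Cells with at least 2 Fn1 UMIs (23) were then compared with cells without Fn1 (42) on their summed unthinned counts. Of 518 genes measured, 20 were higher (3.86%) and 46 lower (8.88%). Cd209f had no thinned UMI in any Fn1 cell and ran from 0 to 6 with a median of 0.5 in the others; its CPM was 11.8 against 648, a ratio of 0.0181 (0.000454 to 0.104). Mgl2 had medians of 0 (0 to 1) and 1 (0 to 7) and a CPM ratio of 0.103 (0.0463 to 0.202). Folr2 had medians of 0 (0 to 2) and 1 (0 to 5) and a ratio of 0.223 (0.111 to 0.409). The ranges of Mgl2 and Folr2 overlapped while most Fn1 cells lacked both genes.

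Of the MHC class II and ductal list, 5 of 6 measured genes passed as lower. H2-Aa had medians of 2 (0 to 14) and 11 (0 to 25) and a ratio of 0.372 (0.323 to 0.428). Of the Lyve1 and Folr2 list 5 of 8 passed as lower (Mrc1, Pf4, Folr2, F13a1, Sepp1). Saa3 was higher, with 190 UMIs against 0 (ratio 101 with 0 set to 3 UMIs, lower limit 81.4). Also higher were Thbs1 (19.8, 9.22 to 50.8), Rilpl2 (6.04, 3.30 to 11.8), Prdx5 (4.53, 2.84 to 7.46), Lyz1 (3.93, 2.76 to 5.69) and Lyz2 (2.41, 2.22 to 2.61). Cxcl1 passed too, but 70.2% of its UMIs in the Fn1 cells came from 1 cell. Retnla did not pass, at a ratio of 0.74 and medians of 9 (0 to 305) and 51 (0 to 173), nor did Ccl24 or Apoe (1.30). With the further lymphocyte genes excluded Retnla stood at 0.409 (0.381 to 0.440) and passed as lower. Of the immediate early and dissociation list 4 of 12 were lower (Atf3, Fosb, Jund, Hspa1a) and none higher. Neutrophil markers summed to 118 CPM in 7 of the 23 Fn1 cells and to 7.37 CPM in 1 of the 42 others, and dendritic markers to 0 and 140 CPM (11 cells). Median depth was 3671 UMIs in the Fn1 cells and 2769 in the others. The part of these markers and of depth in the result was not tested.

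**Figure D4:**
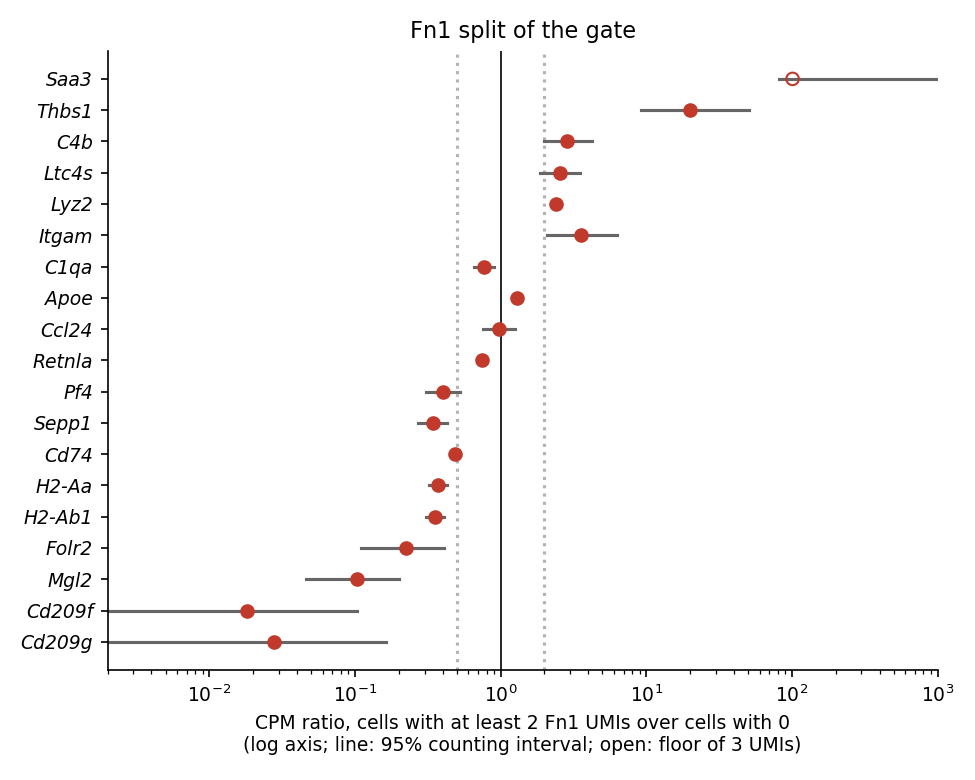
CPM ratio of gated cells with at least 2 Fn1 UMIs over gated cells with 0 (log axis) for 19 genes, with 95% counting intervals; dotted lines mark ratios of 0.5 and 2, and the open point uses the floor of 3 UMIs. Cd209f, Cd209g, Mgl2 and Folr2 lie left of the lower line, and Thbs1 and Saa3 right of the upper one.

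A set of 15 gated cells with a UMI of Saa3 overlapped with the Fn1 cells; it was picked out after the data had been seen, so its values are a description with no size rule. Saa3 (chr7:46711998-46715700), serum amyloid A3, ran from 1 to 45 unthinned UMIs in them with a median of 5, and the gate held 201 of the 217 Saa3 UMIs of the library. All 11 gated cells with Prg4, the lubricin gene, were among them, as were 14 of the 43 cells with Fn1. Unlike for Saa3, the gate held only 54.1% of the library's Prg4 UMIs, 17.9% of its Fn1 UMIs and 7.66% of its Thbs1 UMIs. Icam2 (7 UMIs), Alox15, a lipoxygenase (4 UMIs), and Gata6, a transcription factor (1 UMI), were found in these cells and in no other gated cell. These 3 genes, Saa3, Prg4 and Fn1 belong to the serous cavity macrophage list, whose other members had no UMI in the gate or were found on both sides. Selp, Ltbp1, Garnl3, Naip1 and Cd226 had no UMI in the gate. Ednrb stood at 243 CPM in the Saa3 cells and 318 CPM in the others, and Lyz1 at 1168 and 942 CPM. Few UMIs were found of Cxcl13 (2 and 4), Timd4 (2 and 8), F5 (2 and 2) and Tgfb2 (1 and 3). By CPM these lay higher in the Saa3 cells: Cxcl13 at 48.7 and 17.2, Timd4 at 48.7 and 34.4, F5 at 48.7 and 8.60, and Tgfb2 at 24.3 and 12.9.

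The C1q genes and Csf1r stood at similar levels in the 15 Saa3 cells and the 72 others, C1qa at 3212 and 3273 CPM and Csf1r at 706 and 619 CPM. The rule chose both sides by their C1q sum, so the likeness of the C1q genes is partly set by it. Fn1 stood at 5305 against 766 CPM with medians of 11 (0 to 43) and 0 (0 to 48) UMIs per cell, Thbs1 at 1947 against 94.6 CPM, and Ltc4s at 2288 against 460 CPM. Apoe stood at 33779 against 11854 CPM, with medians of 63 (6 to 389) and 22.5 (0 to 201), and Lyz2 at 22316 against 9626 CPM. C4b (1387 against 348 CPM) and Fcna (949 against 292 CPM) were on the same side.

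On the other side, Mgl2 had no UMI in the 15 cells and 202 in 58 of the 72 others, Fcrls none and 121 in 42, Cd209f none and 107 in 32, Cd209g none and 63 in 25, and Cd163 none and 37 in 24. Retnla stood at 4892 against 45530 CPM, with medians of 4 (0 to 65) and 97.5 (0 to 1325), ranges that overlap. Cd74 stood at 2288 against 19188 CPM with medians of 0 (0 to 65) and 45 (0 to 245), and H2-Aa at 365 against 7403 CPM. Lyve1 was not in this group, with 243 and 176 CPM. Fibroblast markers had no UMI in the 15 cells, and their median depth of 2478 UMIs lay beside 2867 in the others.

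Leaving these 15 cells out of the Fn1 comparison, an alternative chosen after seeing the data, separated its genes. The higher genes went from 20 to 3 and the lower from 46 to 31. Cd209f (0.0314, 0.000786 to 0.180), Cd209g (0.0471, 0.00117 to 0.273), Mgl2 (0.235, 0.122 to 0.414), Folr2 (0.174, 0.0622 to 0.393) and Sepp1 (0.365, 0.274 to 0.478) still passed as lower. H2-Aa no longer passed (0.751, 0.659 to 0.854), and neither did Lyz2, Ltc4s or C4b. Apoe passed as lower (0.364, 0.319 to 0.413) where it had stood at 1.30, and the rho of Fn1 with Retnla went from -0.39 to 0.02.

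**Figure D5:**
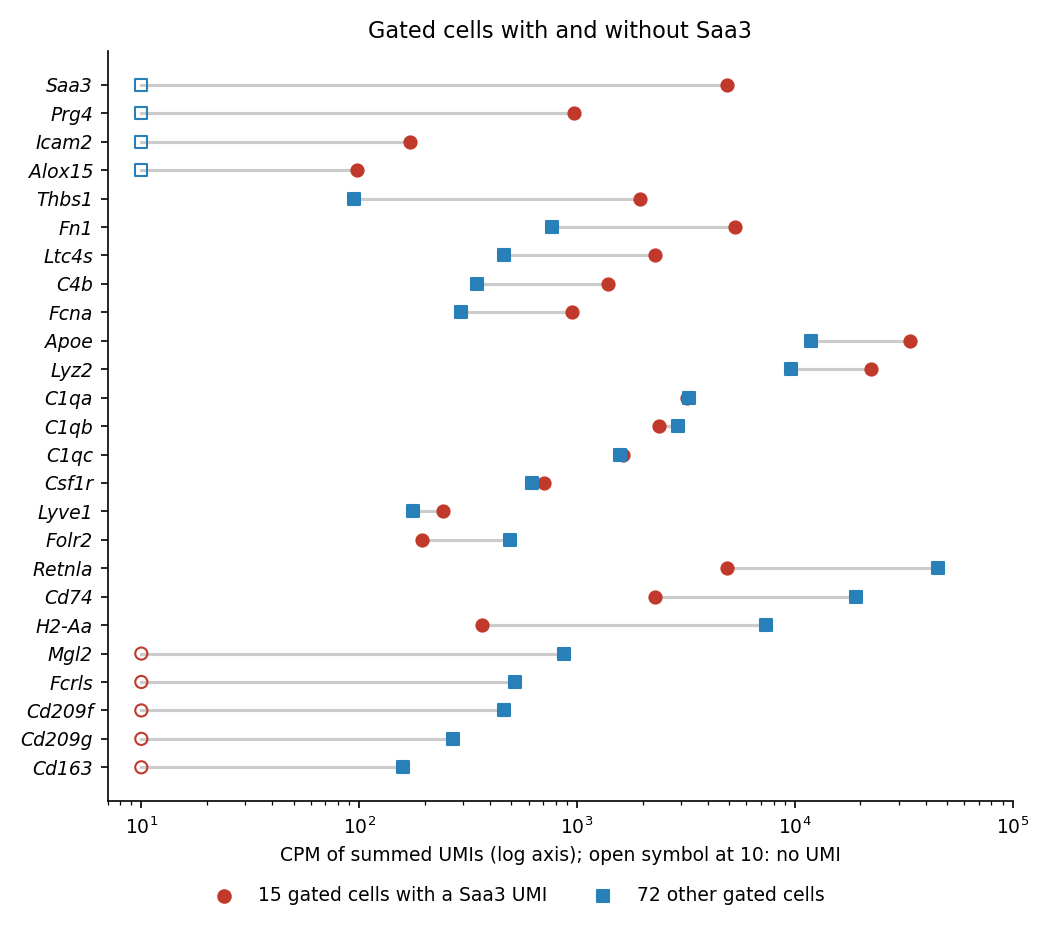
CPM of summed UMIs (log axis) for 25 genes in the 15 gated cells with a Saa3 UMI (circles) and the 72 others (squares), open symbols marking no UMI. The C1q genes (used by the rule) and Csf1r nearly coincide. Mgl2, Fcrls, Cd209f, Cd209g and Cd163 have no UMI in the Saa3 cells.

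Cells with a Folr2 or Lyve1 UMI (41) were set against cells with neither (34). Of 589 genes 17 were higher (2.89%) and 16 lower (2.72%). Cd209f (9.42, 4.75 to 21.3) and Cd209g (18.2, 5.93 to 90.8) led the higher genes, followed by Ccl7 (3.24), Sepp1 (2.25), Pf4 (2.05) and Ccl24 (2.003). The 16 lower genes became 6 in another random draw of the thinned UMIs, and Sepp1, Pf4 and Ccl24 stood at 1.89, 1.76 and 0.840 in that draw and did not pass. Cd209g lost its call without the deepest 5% of gated cells (1.94, 1.11 to 3.51), and Cd209f ranged down to 2.28 over the alternatives, so the sizes of both depend on the settings. Median depth was 3192 UMIs in the cells with Folr2 or Lyve1 and 2852 in the others, and its part was not tested.

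Retnla was split by presence (69 cells against 6) and, added after seeing the data because 6 cells are few, at its median (36 above against 39). By presence 53 of 589 genes were higher (9%) and 28 lower (4.75%), with Fn1 lower in the Retnla cells (0.123, 0.0995 to 0.151) and Cd74 higher (4.13, 3.36 to 5.14). At the median 15 were higher (2.55%) and 25 lower (4.24%). Fcrls, an Fc receptor-like gene (3.80, 2.38 to 6.29), Ccl6 (2.26, 1.96 to 2.61) and Lyz1 (2.72, 2.04 to 3.66) were higher, and Saa3 had no UMI above the median against 190 below. By presence Saa3 lay the other way, with 188 UMIs in the cells with Retnla and 2 in the 6 without (8.38, 2.29 to 69.7). Thbs1 (0.139, 0.0690 to 0.256), Fn1 (0.222, 0.169 to 0.288) and C4b (0.382, 0.253 to 0.565) were lower. Without the 15 Saa3 cells Fn1 stood at 0.659, C4b at 0.790 and Ccl6 at 1.93 and none of them passed, while Fcrls (2.80) and Lyz1 (6.43) did. Lyz1 did not pass with the further lymphocyte genes excluded (1.10, 0.765 to 1.59) or without thinning (1.41), and 1 cell held 32.8% of its UMIs above the median. Median depth was 3521 UMIs above and 2478 at or below the Retnla median, and its part was not tested.

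The same gate took 131 of 1000 TEC cells (13.1%, 11.1 to 15.4), whose median of 7806 UMIs (6385 to 124831) lay above the 2701 of the NEC gate, a gap that can set the shares. Of 3811 genes with counts in both libraries 337 were higher in the NEC gate (8.84%) and 1288 lower (33.8%), and the median gene stood at -0.62 on the log2 scale. With the trimmed-mean scaling and its shift of 0.22 these were 462 and 992. Library, depth and tissue cannot be told apart here. Levels of Retnla, Cd209b, Cd209e, Cd209f and Cd209g were listed at 0 for the whole TEC library, so no fold is given.

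Folr2 stood at 450 CPM in the NEC gate and 48.3 CPM in the TEC gate (9.31, 6.92 to 12.6), and Ccl24 at 1170 and 144 CPM (8.11, 6.81 to 9.67). Lyve1 stood at 186 CPM against no UMI (ratio 95.2 with 0 set to 3 UMIs, lower limit 74.7). Fn1 (17.9, 14.6 to 22.1) and Apoe (13.6, 12.8 to 14.4) were higher in the NEC gate. C1qa (2.38) and C1qb (2.11) passed, C1qc (1.36) did not. Both gates were set on these 3 genes at the same 3 UMIs. In the deeper TEC library that limit is a smaller share of a cell's UMIs, so the C1q ratios are partly set by the rule. Lyz1 (299, 127 to 928), Ltc4s (161, 76.6 to 405), C4b (96.6, 47.7 to 228), Fxyd2 (74.4), Fcna (59.9), Tmem176b (37.5), Ednrb (33.6), Saa3 (27.5) and Mgl2 (26.3) completed the 10 named as highest with Lyve1. The Lyve1 and Folr2 list had 9 of 14 higher and none lower, and 5 of 11 MHC class II and ductal genes were higher and 4 lower.

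Lower in the NEC gate were 14 of 17 interferon genes, among them Isg15 (9.70-fold, 6.95 to 14.0), 10 of 17 lipid-associated genes, among them Spp1, osteopontin, with 2 UMIs (121-fold, 33.4 to 999), and 10 of 17 chemokines and cytokines, among them Il1b with 4 UMIs (104-fold, 40.5 to 381) and Ccl8 with 2 UMIs (114-fold, 31.6 to 945). In the proliferation list 7 of 9 were lower. Ms4a4c, Mmp12 and Cd72 had no UMI in the NEC gate, and Ly6a, Clec4n, Ms4a7 and Ccl4 were the other genes named as lowest. Monocyte markers stood at 190 CPM in the NEC gate and 1129 CPM in the TEC gate, fibroblast markers at 10.97 and 78.3 CPM, and endothelial markers at 7.31 and 49.6 CPM; their part in these differences was not tested.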

How the data were processed

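Whole-number UMI counts per gene and cell, with no normalization, were deposited by the authors for 13774 genes. The submitters' processing notes name mm10 as the build and list Seurat, STAR 2.5.1b and Cell Ranger 2.0.2, without the parameters of any of them. No cell filter was added to the gate. Counts were summed over cells, scaled to CPM, and compared as ratios with exact Clopper-Pearson 95% intervals conditional on the gene total (numpy 2.4.6, scipy 1.17.1, pandas 2.3.3). A sum of 0 was set to 3 UMIs. Cells were thinned by drawing 1500 UMIs without replacement. Doublets were not removed; Scrublet called 9 NEC cells, none of them gated. The library held 5228289 UMIs.

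The scripts that apply the size rule were checked on simulated counts with known changes. The members, the 17 gene lists and the splits were chosen with earlier results of these data known. Named genes were the rule's own genes and list members used as examples, the 20 highest and 8 lowest by interval bound against other NEC cells, 10 and 10 for the other comparisons, and within the gate the 20 most variable genes and 5 highest and 5 lowest correlations; mitochondrial, ribosomal protein, hemoglobin and immunoglobulin genes were left out. Gene positions come from GENCODE vM21 (GRCm38) and promoters from RefSeq. The Retnla median split, the Saa3 cells, the comparison cells without fibroblast UMIs, the other random draw and, within the gate, the mean of per-cell CPM were chosen after seeing the data. Alternatives covered the gate, a cell filter, Scrublet, further lymphocyte genes, scaling, UMI minimums, thinning depth and leaving out the deepest cells.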

Additional observations from a re-analysis of the deposited data

How the results depend on the processing

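No paired analysis was possible because each group is 1 library. The share of gated cells moved to 3.38% when further lymphocyte genes were excluded, and with it 589 genes were lower against other NEC cells, 101 were higher against the Ace Treml4 cells, 11 were higher and 3 lower in the Folr2 or Lyve1 split, and Lyz1 against the dendritic cells reversed to 1.43. With a minimum of 20 UMIs, 261 genes were higher and 272 lower against the Ace Treml4 cells, 376 and 254 against the dendritic cells, and 543 were higher against the TEC gate. With a minimum of 100 UMIs these were 83 and 32, 104 and 46, and 182 higher with 820 lower. With the gates set on thinned cells 832 genes were lower against the TEC gate.

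In the Folr2 or Lyve1 split the 16 lower genes became 7 with a gate of at least 2 UMIs, 5 with at least 5, 6 with thinning to 1000 UMIs, 1 with thinning to 2500, 4 without thinning (28 higher), 6 without the deepest 5% of gated cells (9 higher), 6 in another random draw and 7 without the Saa3 cells. Ccl24 in that split reversed to 0.848 at 1000 UMIs, 0.749 at 2500 and 0.840 in the other draw, and Saa3 to 1.19 and 1.74 at 1000 and 2500. In the Fn1 split 26 genes were lower with thinning to 2500, 3 were higher without the Saa3 cells and 31 were higher by the mean of per-cell CPM. In the Retnla median split 8 were higher with thinning to 2500 and 29 without thinning, and 12 were lower without the Saa3 cells. The rho of Fn1 and Retnla reversed to 0.0167 without the Saa3 cells. The cause of these changes was not tested, except that a UMI minimum changes how many genes are measured. Of the other values, 1231 counted as unchanged. Their ratios kept their side of the size rule, their shares stayed within the main interval and their rhos moved by at most 0.2. A ratio that did not pass could cross 1 and still count as unchanged. Another 66 values no longer passed the rule, 14 newly passed it, 18 moved and 7 reversed.

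Depth limits what can be read from single gated cells: at 1500 UMIs a gene of low level is often missed, and 12 cells were too shallow for the thinned values.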
